A study of Homo sapiens with 6 samples.

Results

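Expression of 10 genes of the elastic fibre and of latent TGF-beta storage was examined across 6 RNA sequencing libraries of LX-2 (established human cell line, hepatic stellate origin). The genes were chosen by name, with earlier results of these data known, as 10 of the 24789 rows of the deposited table. They were elastin (ELN), the fibrillins FBN1 and FBN2, and the fibulins FBLN1, FBLN5 and EFEMP2. The latent TGF-beta binding proteins LTBP1, LTBP2, LTBP3 and LTBP4 completed the set. The control group was 3 libraries labelled WT and given a scrambled siRNA, and the comparison group was 3 libraries labelled AEBP1 knockdown and given an siRNA against AEBP1, which encodes a secreted collagen-binding protein also described as a transcriptional repressor. In both groups the siRNA was used at 50 nM with a lipid transfection reagent, and RNA was taken at 48 h. All libraries came from 1 cell line. The labels do not say whether the 3 libraries of a group were separate transfections, so p-values cover only the variation among these libraries, which could be technical.

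Elastic fibres are built from an elastin core laid down on a scaffold of fibrillin microfibrils. Fibulins bridge tropoelastin to the microfibrils and to the lysyl oxidases that crosslink it. The LTBPs resemble fibrillins in domain structure; LTBP1, LTBP3 and LTBP4 can bind the propeptide of TGF-beta and tether the inactive growth factor to the matrix, while LTBP2 does not bind it. Activated stellate cells are a major source of scar matrix in the liver, and TGF-beta is a principal signal for that activation.

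The siRNA target was checked first. AEBP1 was measured at 53.6, 48.7 and 25.1 CPM (counts per 1000000 after scaling) in scrambled 1, 2 and 3, as labelled, and at 29.7, 27.7 and 48.3 CPM in AEBP1 siRNA 1, 2 and 3. The pair numbered 3 thus went against its labels, so every direction below is between libraries as labelled, and counts of genes called are also given without that pair. The AEBP1 values fell into separate clusters of 3 libraries each, so no correlation of AEBP1 with the elastic fibre genes was taken over them, and a relation was not tested. Total counts ranged from 34433510 to 49432960 per library. In the first of the AEBP1 siRNA libraries, median departures over all genes followed transcript length, and their values are given beside the results concerned.

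No difference between the labelled groups passed the test for any of these genes. In edgeR's quasi-likelihood test, 0 of the 9 genes with enough counts to test had an adjusted p under 0.05, where 0.00615% of all 16250 genes tested did (1 gene). At an unadjusted p under 0.05 the count was again 0 of 9, against 1.33% of all genes, and the lowest unadjusted edgeR p, that of FBN2, was 0.222. DESeq2 and limma-voom also called 0 of 9, where they called 0.0277% and 0.0123% of all genes. The CPM ranges of the groups overlapped for all 9 genes, whereas the ranges did not overlap for 5.93% of all genes. With both libraries numbered 3 left out, edgeR called 0 of 9, against 0.00614% of all genes. It also called 0 of 9 when AEBP1 siRNA 1 was left out as well, a fit of 2 libraries against 1 in which 1.46% of all genes were called.

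Elastin itself was not detected. ELN (ENSG00000049540), the gene of the fibre core, had 0 counts in each of the 6 libraries. A count of 0 allows up to 3 counts, or a level of up to 0.0607 CPM in the deepest library and 0.0871 CPM in the shallowest. No fold between groups can be given for it.

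Of the fibrillins, FBN1 (ENSG00000166147), the main fibrillin of adult microfibrils, was the more abundant. It stood at 255, 291 and 338 CPM in scrambled 1, 2 and 3 and at 183, 327 and 274 CPM in AEBP1 siRNA 1, 2 and 3. AEBP1 siRNA 1 was the lowest library, and the other 2 of its group lay within the range of the controls. The group means were 294.8 ± 41.6 and 261.5 ± 72.8 CPM (SD, n = 3 each). The log2 fold change was -0.17 (SE 0.206, 95% confidence interval -0.65 to 0.30, edgeR adjusted p = 0.991). Without AEBP1 siRNA 1 the estimate was 0.028, on the other side of 0.

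FBN2 (ENSG00000138829), the fibrillin most associated with developing tissue, was measured at 111, 130 and 134 CPM in the scrambled libraries and at 65.7, 115 and 126 CPM in the AEBP1 siRNA libraries. Here too AEBP1 siRNA 1 was far below the other 5 libraries, which differed among themselves by at most 1.21-fold. The means were 125 ± 12.4 and 102 ± 32.0 CPM (SD, n = 3 each), with a log2 fold change of -0.29 (SE 0.222, 95% confidence interval -0.80 to 0.22, edgeR adjusted p = 0.991). The estimate was -0.06 without AEBP1 siRNA 1 and -0.42 without both libraries numbered 3. In the GENCODE v29 annotation FBN2 shares 56 exonic bases with SLC27A6, which had 0 counts in every library.

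**Figure D1:**
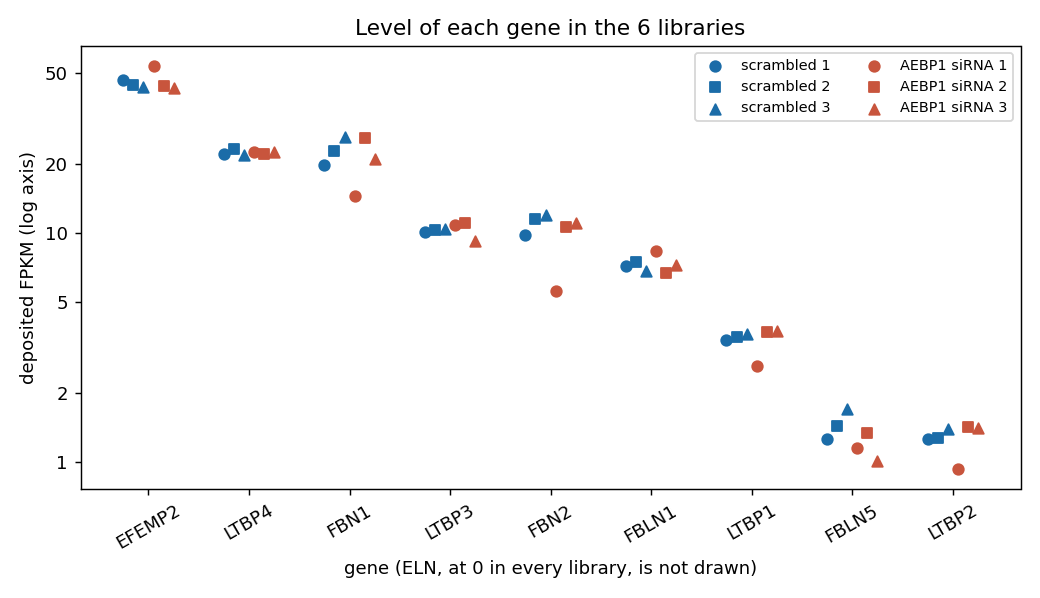
Level of each gene in FPKM (log axis) in the 6 libraries; each point is 1 library, coloured by labelled group, and ELN at 0 is not on the log axis. EFEMP2 is highest at 42.8 to 53.6 FPKM, LTBP2 and FBLN5 are lowest near 1 FPKM, and the labelled groups overlap for every detected gene.

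Among the fibulins, EFEMP2 (fibulin-4, ENSG00000172638), which is needed to recruit lysyl oxidase to elastin, was the most abundant. Its levels were 97.2, 90.7 and 90.3 CPM in the scrambled libraries and 107.7, 88.7 and 89.6 CPM in the AEBP1 siRNA libraries. AEBP1 siRNA 1 was the highest library, the reverse of its place for the fibrillins. The log2 fold change was 0.040 (SE 0.106, 95% confidence interval -0.20 to 0.28, edgeR adjusted p = 0.991), and -0.06 without AEBP1 siRNA 1. EFEMP2 shares 11 exonic bases in GENCODE v29 with MUS81 on the opposite strand, which had 1815 to 2337 counts per library, and the sources used here do not say whether counting used strand.

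FBLN1 (ENSG00000077942), a fibulin found both in elastic fibres and in basement membranes, was likewise highest in AEBP1 siRNA 1. It stood at 20.7, 20.5 and 20.1 CPM in the scrambled libraries and at 24.0, 18.9 and 21.1 CPM in the AEBP1 siRNA libraries. Its estimate was 0.064 (SE 0.126, 95% confidence interval -0.22 to 0.35), or -0.03 without AEBP1 siRNA 1.

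FBLN5 (ENSG00000140092), a fibulin that binds elastin and cell surface integrins, was the least abundant of the chosen fibulins. It stood at 3.34, 2.80 and 4.31 CPM in the scrambled libraries and 2.99, 3.59 and 2.81 CPM in the AEBP1 siRNA libraries. Its log2 fold change was -0.15 (SE 0.225), with a wide 95% confidence interval of -0.67 to 0.36. The direction rested on scrambled 3, without which the estimate was 0.03. Its deposited units also ordered the libraries differently: scrambled 2 was lowest by CPM, with 138 counts, and second highest by FPKM, at 1.44. The transcript length implied by counts and FPKM was 1.94 kb at its lowest library and 2.76 kb at its highest.

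Of the LTBPs, LTBP4 (ENSG00000090006), an LTBP that also takes part in elastic fibre assembly, was the most abundant of its family and the steadiest of the 9 detected genes. Its levels were 119.8, 125.0 and 116.3 CPM in the scrambled libraries and 120.5, 118.2 and 121.8 CPM in the AEBP1 siRNA libraries. The highest library was 1.07-fold above the lowest. The log2 fold change was -0.0023 (SE 0.0854, 95% confidence interval -0.20 to 0.19, edgeR adjusted p = 0.998), with an estimate of 0.01 under upper quartile scaling.

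LTBP3 (ENSG00000168056), which binds latent TGF-beta in bone and other tissues, varied little more. It was measured at 42.6, 43.8 and 41.1 CPM in the scrambled libraries and 43.2, 44.98 and 40.3 CPM in the AEBP1 siRNA libraries. Its log2 fold change was 0.010 (SE 0.0926, 95% confidence interval -0.20 to 0.22, edgeR adjusted p = 0.994), with sign changes to -0.03 without AEBP1 siRNA 2 and -0.01 without scrambled 3.

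LTBP1 (ENSG00000049323), the first described carrier of latent TGF-beta, stood at 23.8, 23.6 and 24.1 CPM in the scrambled libraries and at 18.1, 24.9 and 23.7 CPM in the AEBP1 siRNA libraries. The 5 libraries other than AEBP1 siRNA 1 lay within 1.05-fold of each other, and AEBP1 siRNA 1 was below all of them. The log2 fold change was -0.10 (SE 0.140, 95% confidence interval -0.42 to 0.22), or 0.03 without that library.

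LTBP2 (ENSG00000119681), the LTBP that associates with microfibrils without carrying TGF-beta, had the same shape at a lower level. Its values were 12.37, 12.35 and 13.53 CPM in the scrambled libraries and 8.95, 13.35 and 13.27 CPM in the AEBP1 siRNA libraries. The log2 fold change was -0.10 (SE 0.179, 95% confidence interval -0.52 to 0.31), or 0.06 without AEBP1 siRNA 1. In GENCODE v29, LTBP1 shares 249 exonic bases with AC019127.1 and LTBP2 shares 207 with AC013451.1, both RNA genes on the opposite strand. ELN shares 165 with ELN-AS1, also on the opposite strand. The deposited counts hold no row for any of these RNA genes.

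Levels were compared between genes on the FPKM scale only (fragments per kilobase of transcript per 1000000 fragments), which divides by transcript length. EFEMP2 was highest at 45.7 ± 4.04 FPKM (SD over the 6 libraries). LTBP4 at 22.5 ± 0.476 and FBN1 at 21.8 ± 4.41 FPKM followed, and their ranges overlapped. LTBP3 at 10.3 ± 0.639, FBN2 at 10.1 ± 2.33 and FBLN1 at 7.30 ± 0.596 FPKM came next, where each overlapped its neighbour. LTBP1 at 3.45 ± 0.411 FPKM was clear of the genes on either side of it. FBLN5 at 1.32 ± 0.239 and LTBP2 at 1.29 ± 0.185 FPKM overlapped, and ELN was at 0.

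Within families, the summed LTBP level was nearly the same in every library, from 37.0 to 38.4 FPKM. The group means were 37.6 ± 0.727 and 37.5 ± 0.770 FPKM (SD, n = 3 each; exact two-sided permutation p = 0.8, adjusted p = 1 over 3 sums). Summed fibrillins ranged more widely, from 20.1 FPKM in AEBP1 siRNA 1 to 38.2 FPKM in scrambled 3, with means of 34.1 ± 4.32 and 29.7 ± 8.60 FPKM (exact permutation p = 0.6, adjusted p = 1). The sum of the chosen fibulins FBLN1, FBLN5 and EFEMP2 was highest in AEBP1 siRNA 1 at 63.1 FPKM. It lay between 51.1 and 54.9 FPKM in the others. This fibulin sum leaves out other fibulins, among them EFEMP1, FBLN2 and FBLN7 at means of 16.5, 11.6 and 6.38 FPKM over the libraries. With 3 against 3 libraries the smallest exact p is 0.1.

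The make-up of each family, over the chosen genes only, was compared by 8 shares. The adjusted exact permutation p was 1 for each, in a design too small for any share to reach 0.05. LTBP4 made up 59.8% ± 1.00 of summed LTBP FPKM in the scrambled group and 60.1% ± 1.91 in the AEBP1 siRNA group (SD, n = 3 each). LTBP3 followed at 27.3% and 27.6%, LTBP1 at 9.39% and 8.96%, and LTBP2 at 3.50% and 3.35%. FBN1 took 67.3% ± 1.16 and 69.5% ± 3.57 of the fibrillin sum, and EFEMP2 took 83.8% ± 0.731 and 84.4% ± 0.562 of the fibulin sum. FBLN5 took 2.76% ± 0.485 and 2.13% ± 0.396 of the fibulin sum (exact permutation p = 0.2 before adjustment).

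**Figure D2:**
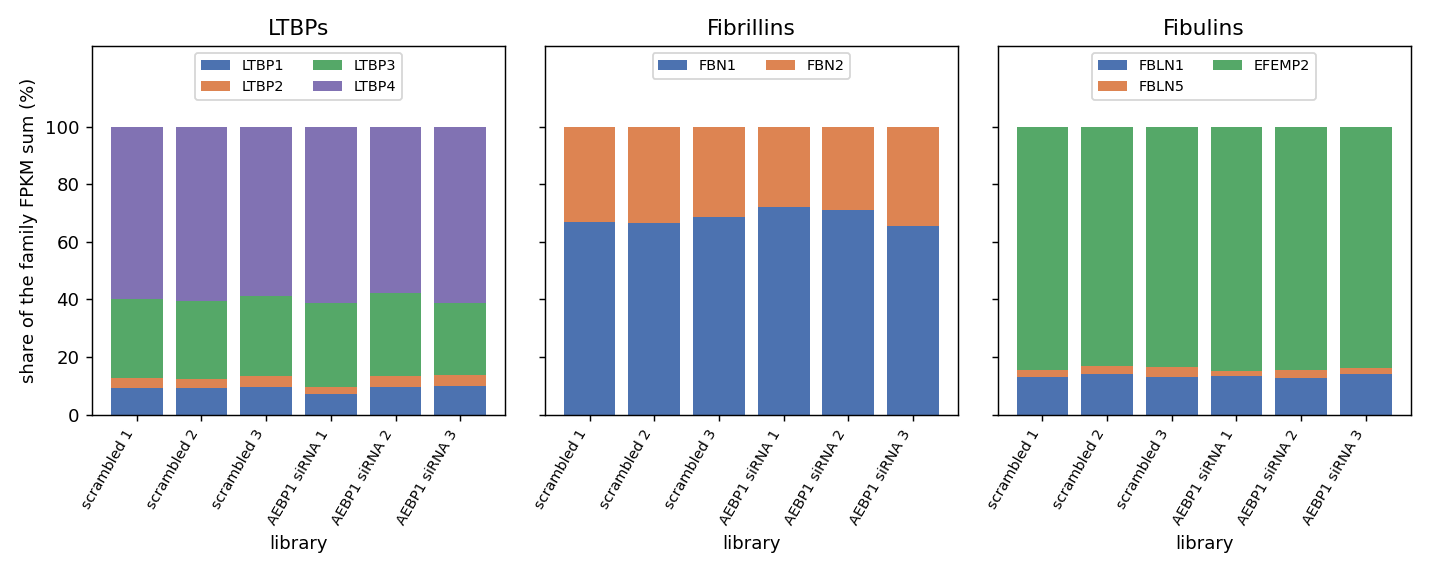
Share of summed FPKM (%) taken by each gene within the chosen LTBPs, fibrillins and fibulins in each of the 6 libraries. Each stacked bar is 1 library. LTBP4, FBN1 and EFEMP2 hold the largest part in every library, and the LTBP1 segment is smallest in AEBP1 siRNA 1 at 7.14%.

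AEBP1 siRNA 1 held the largest departures of FBN1, FBN2, LTBP1 and LTBP2 from their means over libraries. AEBP1 siRNA 1 was the lowest of the 6 libraries for FBN1, FBN2, LTBP1 and LTBP2, and the highest for EFEMP2 and FBLN1. These counts of 4 and 2 of 9 compare with 32.5% and 32.2% of all genes, for which that library was also lowest or highest. In FPKM, AEBP1 siRNA 1 reached 62.4% of the mean of the other 5 libraries for FBN1, 50.9% for FBN2, 73.2% for LTBP1 and 69.0% for LTBP2. It reached 106% for LTBP3, 101% for LTBP4, 118% for FBLN1 and 121% for EFEMP2. FBLN5 stood at 85.3%.

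Transcript length was taken from the ratio of counts to FPKM. It was 12.8 kb for FBN1, 11.2 kb for FBN2, 9.63 kb for LTBP2 and 6.69 kb for LTBP1. The genes not low in AEBP1 siRNA 1 were shorter, at 5.34 kb for LTBP4, 4.14 kb for LTBP3, 2.87 kb for FBLN1 and 2.06 kb for EFEMP2. FBLN5 was short too, at 2.62 kb, but was 0.13 below its mean in that library (log2). LTBP3 and LTBP4 were 0.018 and 0.0032 above theirs. FBLN5, LTBP3 and LTBP4 each lay on the other side of 0 from the median of genes of like length. Over all genes, the median deviation of AEBP1 siRNA 1 from the gene's mean over libraries (log2 CPM) was 0.24 for 4274 genes under 2 kb. It was 0.085 for 5919 genes of 2 to 4 kb, -0.16 for 4765 genes of 4 to 8 kb, and -0.47 for 1292 genes of 8 kb and over. The corresponding deviations were -0.57 for FBN1, -0.75 for FBN2, -0.44 for LTBP2 and -0.34 for LTBP1. In the other 5 libraries the same medians stayed between -0.09 and 0.16, but they too differed with length. From the shortest to the longest class they went from -0.051 to 0.12 in scrambled 2 and from -0.091 to 0.16 in scrambled 3. The same values were -0.081 and 0.13 in AEBP1 siRNA 2, -0.0073 and 0.10 in AEBP1 siRNA 3, and 0.046 and -0.017 in scrambled 1. The source of this length pattern was not tested.

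**Figure D3:**
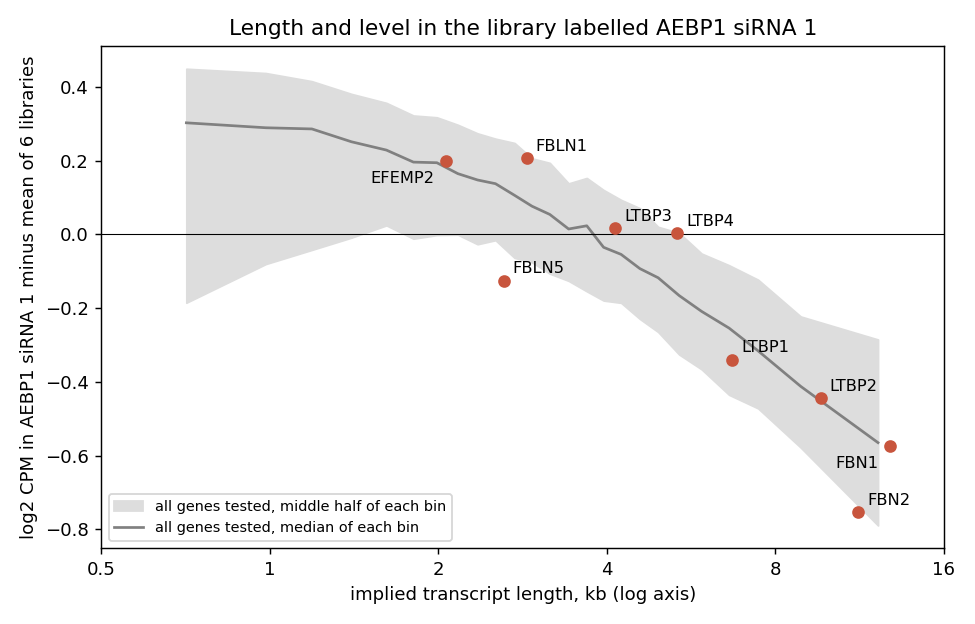
Deviation of AEBP1 siRNA 1 from the mean of the 6 libraries (log2 CPM) against implied transcript length (kb, log axis); points are the 9 detected genes, the line is the median of all genes tested in bins of length, and the band spans the lower to the upper quartile. The line descends with length, and FBN1 and FBN2 at the long end lie at -0.57 and -0.75.

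A fit in which this length trend was removed from each library, chosen after the data were seen, gave tighter values for the long genes. The SD of log2 CPM over the 6 libraries went from 0.32 to 0.096 for FBN1, from 0.38 to 0.14 for FBN2, from 0.17 to 0.048 for LTBP1 and from 0.22 to 0.047 for LTBP2. It was smaller for 6 of the 9 genes and larger for 3, which were FBLN5, LTBP3 and LTBP4. For LTBP4, the steadiest gene as counted, the SD went from 0.036 to 0.091. The median SD of the 9 genes went from 0.17 to 0.078, and that of all genes from 0.20 to 0.16.

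With the trend removed, FBN1 had a log2 fold change of -0.0041 (SE 0.0826, 95% confidence interval -0.19 to 0.19). FBN2 kept the lowest library in AEBP1 siRNA 1, at -0.25 from its mean, and had an estimate of -0.16 (SE 0.0887, 95% confidence interval -0.36 to 0.05). The estimates of EFEMP2, LTBP2 and LTBP4 crossed 0, to -0.02, 0.03 and 0.06. edgeR called 0 of 9 genes in this fit, where it called 0.0185% of all genes. The median log2 fold change of the 9 genes was -0.10 as counted, with 6 estimates below 0 and 3 above, beside -0.0023 for all genes tested. It was -0.0041 with the trend removed and -0.0043 without AEBP1 siRNA 1.

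**Figure D4:**
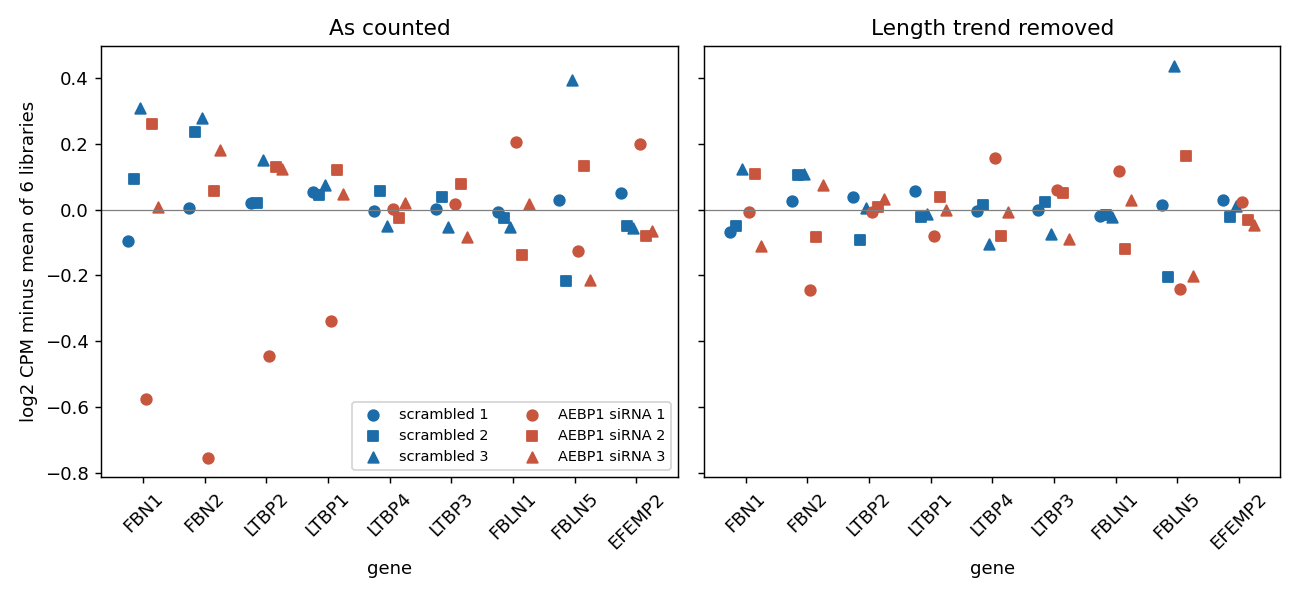
Deviation of each of the 9 detected genes from its mean over the 6 libraries (log2 CPM), genes ordered from the longest to the shortest transcript, as counted and with the length trend removed; each point is 1 library. As counted, AEBP1 siRNA 1 is lowest for the long genes FBN1, FBN2, LTBP2 and LTBP1 and highest for FBLN1 and EFEMP2; with the trend removed, FBN1 in that library lies at -0.0084.

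**Figure D5:**
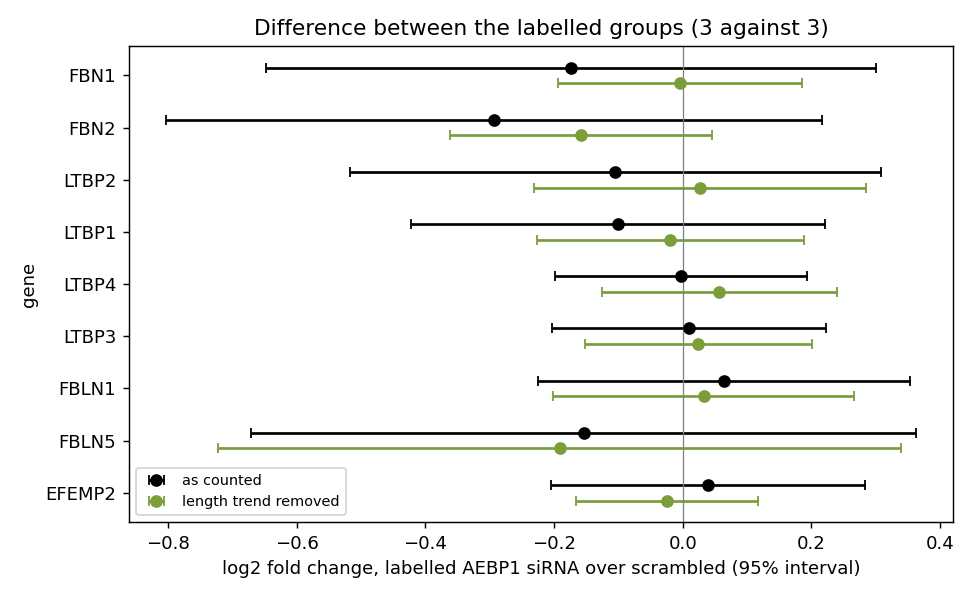
Log2 fold change of each of the 9 genes, AEBP1 siRNA over scrambled as labelled, with 95% confidence intervals from edgeR as counted and with the length trend removed. Every interval spans 0, and the estimates of EFEMP2, LTBP2 and LTBP4 change sign between the fits.

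The 250 bases before the start sites of FBN1, FBN2, LTBP1 and EFEMP2 are shown as a description (RefSeq, GRCh38.p14, read on the gene's strand). A relation between these bases and the levels above was not tested. Capitals mark each match, on either strand, to any of 3 motifs. One motif was CAGAC, the SMAD-binding element through which TGF-beta signals reach DNA. Another was the TATA box, spelled TATAAA, and the last was the GC box, spelled GGGCGG. These windows are FBN1 at chr15:48644971-48645220 on the minus strand, FBN2 at chr5:128538246-128538495 on the minus strand, LTBP1 (the most upstream of its windows) at chr2:32946703-32946952 on the plus strand, and EFEMP2 at chr11:65872801-65873050 on the minus strand.
FBN1: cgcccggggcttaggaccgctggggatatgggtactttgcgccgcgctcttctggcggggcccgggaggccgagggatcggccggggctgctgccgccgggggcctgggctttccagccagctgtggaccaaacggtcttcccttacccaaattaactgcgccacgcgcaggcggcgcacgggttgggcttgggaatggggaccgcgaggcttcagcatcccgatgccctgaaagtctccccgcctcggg
FBN2: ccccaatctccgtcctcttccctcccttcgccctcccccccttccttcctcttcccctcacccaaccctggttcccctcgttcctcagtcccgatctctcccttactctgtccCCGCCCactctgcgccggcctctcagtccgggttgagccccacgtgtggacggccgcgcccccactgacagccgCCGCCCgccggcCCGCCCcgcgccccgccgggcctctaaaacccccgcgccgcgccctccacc
LTBP1: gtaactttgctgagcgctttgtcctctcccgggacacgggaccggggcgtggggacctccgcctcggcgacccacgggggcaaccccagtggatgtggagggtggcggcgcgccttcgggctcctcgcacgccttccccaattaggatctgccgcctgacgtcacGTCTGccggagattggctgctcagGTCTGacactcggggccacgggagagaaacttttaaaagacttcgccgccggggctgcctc
EFEMP2: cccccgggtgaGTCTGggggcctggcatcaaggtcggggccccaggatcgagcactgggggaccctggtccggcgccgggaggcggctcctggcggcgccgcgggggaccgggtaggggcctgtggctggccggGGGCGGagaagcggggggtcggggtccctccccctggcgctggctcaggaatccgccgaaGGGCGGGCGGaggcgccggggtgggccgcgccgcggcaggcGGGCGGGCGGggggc
GC content was 69.6% for FBN1, 72.8% for FBN2, 66.4% for LTBP1 and 81.6% for EFEMP2, beside a median of 58.0% over 35116 promoter windows. FBN2 held 3 matches to GGGCGG and EFEMP2 held 5, a motif present in 42.6% of all windows. LTBP1 held 2 matches to CAGAC and EFEMP2 held 1, against 38.0% of all windows with at least 1. FBN1 held none of the motifs, and no window of the 4 held TATAAA, which 10.7% of all windows did. A match is a description of the letters and not a binding site. Windows were matched for 9 of the 10 genes, 14 windows in all. In the windows not shown, GC content ran from 45.2% (LTBP1 and LTBP4) to 81.6% (LTBP4), and 1 of FBLN5 held TATAAA.

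Of the other genes of elastic fibres and microfibrils, 17 of 22 could be tested and 0 were called (edgeR). The share called over all genes tested was 0.00615%, which also stands beside the counts of the lists below. Their median log2 fold change was -0.20, with 13 estimates below 0 and 4 above, and it was -0.0079 without AEBP1 siRNA 1. EFEMP1 (fibulin-3), ADAMTS6, a metalloproteinase tied to microfibrils, and FBLN2 were the most abundant, with group means of 16.8 and 16.2, 16.2 and 14.97, and 11.7 and 11.4 FPKM. An unadjusted p under 0.05 was found for 1 of the 17, where 1.33% of all genes had one. This was HMCN1, with a log2 fold change of -0.84 (edgeR unadjusted p = 0.024, adjusted p = 0.991). It encodes a large extracellular matrix protein of the fibulin family and was chosen after its value was seen. Its level was low, with 334 counts in all, 0.66 to 1.75 CPM and a mean of 0.063 FPKM. MFAP5 and ADAMTSL2 had 0 counts in every library and MFAP2, a core microfibril glycoprotein, had 1 count in all.

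Among the enzymes that crosslink elastin and collagen, and their activators, LOXL2, LOX and BMP1 were the most abundant. LOXL2, a lysyl oxidase family member, stood at 91.8 ± 5.22 and 91.8 ± 6.70 FPKM (SD, n = 3 each) in the scrambled and AEBP1 siRNA groups. LOX, the archetypal lysyl oxidase, stood at 26.1 ± 0.457 and 24.9 ± 3.14 FPKM, and BMP1, which activates it, at 16.2 ± 1.33 and 16.00 ± 0.482 FPKM. All 9 genes of this list were tested and 0 were called, with a median log2 fold change of -0.05, or 0.018 without AEBP1 siRNA 1. Of elastin receptor and elastin-degrading genes, 11 of 14 were tested and 0 were called, led by CTSA at 136 and 139, CTSL at 82.3 and 89.0, and NEU1 at 60.1 and 66.9 FPKM. CTSA and NEU1 belong to the elastin receptor complex and CTSL is a lysosomal protease, while the elastases MMP12 and ELANE had 0 counts.

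For latent TGF-beta itself, 14 of 14 ligands, anchors and activators were tested and 0 were called. Their median log2 fold change was -0.06, or -0.0069 without AEBP1 siRNA 1. TGFB1, the ligand carried by the LTBPs, stood at 25.5 ± 1.24 and 28.98 ± 4.35 FPKM (log2 fold change 0.17, SE 0.120). In AEBP1 siRNA 1 it was 0.32 above its mean over libraries (log2). FN1, the fibronectin that anchors latent complexes, stood at 270 ± 23.1 and 219 ± 76.1 FPKM (log2 fold change -0.34, SE 0.236), and it was 0.77 below its mean in AEBP1 siRNA 1 with a length of 9.24 kb, like the long genes above. ITGB1, an integrin subunit, was at 212 and 211 FPKM.

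Receptors and SMADs gave 0 calls of 8 tested, with SMAD3, TGFBR2 and ENG the most abundant at group means of 25.7 to 28.0 FPKM. The median log2 fold change of the 8 was -0.07, with 7 estimates below 0 and 1 above. It was 0.0091 without AEBP1 siRNA 1. Genes that respond to TGF-beta gave 0 calls of 11 tested, with a median log2 fold change of 0.08, or 0.019 without AEBP1 siRNA 1. TAGLN, an actin-binding protein of contractile cells, was at 130 ± 8.33 and 139 ± 29.8 FPKM (SD, n = 3 each). TGFBI, a secreted matrix protein, was at 129 ± 4.65 and 124 ± 8.44 FPKM. In AEBP1 siRNA 1, TAGLN was 0.33 and TGFBI 0.030 above their means over libraries (log2).

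The genes whose log2 CPM followed the mean of the elastic fibre genes most closely (Pearson's r over 6 libraries, among 11059 genes) were HEATR5A, EPG5, PDPK1, NCOA3 and SLC38A1, with r of 0.999 to 1.00 after rounding. They were also low in AEBP1 siRNA 1, by 0.46 to 0.77 on the log2 scale, and 7.92 to 14.2 kb long. An r over 0.95 was reached by 1108 genes, or 10.0% of those compared, so these 5 are among many. For single genes, the closest were DLG5 for FBN1, SSX2IP for FBN2, TRERF1 for LTBP2, ADD3 for LTBP1, ARF4 for EFEMP2 and HLA-DPB1 for FBLN1, at r of 0.998 to 1.00. LTBP3 and LTBP4 had fewer close neighbours, CDRT4 at 0.94 and TMCC2 at 0.98.

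The cells were checked against markers. VIM, COL1A1 and TIMP1 led the stellate list, at group means of 533 and 572, 204 and 197, and 133 and 140 FPKM, while LRAT had 0 counts and DES had 12 counts in all. Of the other cell types the liver holds, the defining genes ALB, EPCAM, KRT19 and PTPRC had 4, 9, 3 and 6 counts over the 6 libraries, and PECAM1 and CDH5 had 22 and 13. Other genes of the same lists were present: KRT18 had 40920 counts in all (mean 95.5 FPKM), FLT1 15704 (10.03 FPKM) and CD68 5098 (9.93 FPKM). KRT7, SOX9, SERPINA1 and CD14 had 4000, 4040, 1646 and 500 counts. The source of these transcripts was not tested. Summed hepatocyte markers lay between 4.93 and 9.23 CPM in the scrambled libraries and between 5.69 and 7.58 CPM in the AEBP1 siRNA libraries. The same ranges were 184 to 199 and 187 to 253 CPM for epithelial markers, 18.8 to 23.6 and 21.7 to 25.7 CPM for leukocyte markers, and 63.4 to 68.0 and 55.8 to 69.9 CPM for endothelial markers.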

How the data were processed

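RNA from 6 LX-2 samples was sequenced from mRNA libraries. The authors deposited 1 table of raw counts and FPKM per gene, per the file headers, and FPKM was thus the authors' own per-length unit. Per the submitters' processing notes, reads were placed on hg19. For the aligner, counter, annotation, strand setting and filters: not given in the sources used here. The 17 lines without values were left out, and 27 symbols that had become dates were restored by gene ID. Total counts were 34433510 to 49432960 per library, and no pair of libraries agreed within sampling noise (lowest chi-square per degree of freedom 8.02). Floors cover counting error only.

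The genes and lists were chosen with earlier results of these data known. Groups came from the labels. Counts were filtered with filterByExpr (16250 genes), scaled by TMM and tested with edgeR 4.0.16 in R 4.3.3 (quasi-likelihood, group only, Benjamini-Hochberg over all genes, adjusted p under 0.05). CPM is the count per 1000000 of scaled library size. Family sums and shares of FPKM were compared by exact two-sided permutation tests. Implied length is the count divided by FPKM and total count, as a median over libraries with at least 10 counts. Named genes were all 10 genes, AEBP1, the 3 tested genes with the highest mean FPKM per list, any called gene, and the genes most alike over libraries among those with a mean of at least 5 CPM. One gene that this rule names is not reported here. Alternatives were DESeq2 1.42.0, limma 3.58.1 (voom, and log2(FPKM + 1) or log2(FPKM + 0.1)), DESeq2 size factors, upper quartile scaling, other filters, a stricter threshold, a replicate block and libraries left out. Chosen after the data were seen were a fit without assembled loci, a fit without both libraries numbered 3 and AEBP1 siRNA 1, and removal of the length trend (lowess, span 0.3).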

Additional observations from a re-analysis of the deposited data

How the results depend on the processing

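No alternative called any of the 9 genes, over 179 values of which 22 changed sign, with a lowest adjusted p of 0.322 (edgeR). Genes called over the whole table numbered 1 as reported, 6 with DESeq2, 3 with the length trend removed, 3 with no filter, 2 with limma-voom, 2 with limma on log2(FPKM + 0.1), 0 on log2(FPKM + 1) with no filter, 0 at an adjusted p under 0.01, and 0 to 2 with single libraries left out. Without both libraries numbered 3 and AEBP1 siRNA 1, which leaves 2 against 1 so that the lone library is assumed to vary like the others, edgeR called 249 genes (1.46% of 17050), among them 1 gene of the pathway lists, CTSS (log2 fold change -0.79, adjusted p = 0.033). In that fit the log2 fold change was 0.26 for FBN1, -0.12 for FBLN1, 0.23 for FBLN5, -0.081 for EFEMP2, 0.071 for LTBP1, 0.11 for LTBP2, 0.059 for LTBP3 and -0.050 for LTBP4, and the median of the 9 genes was 0.059. With the length trend removed the median was -0.0041, and EFEMP2, LTBP2 and LTBP4 reversed to -0.024, 0.027 and 0.057. LTBP4 reversed to 5.8e-06 on log2(FPKM + 0.1) and to 0.014 with upper quartile scaling. FBLN5 reversed to 0.10 without both libraries numbered 3, where the LTBP4 share differed by -0.83 percentage points, and the FBLN1 share differed by 0.29 when taken from counts. The cause was not tested.

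With each library left out in turn, log2 fold changes ranged from -0.37 to 0.028 for FBN1, -0.030 to 0.14 for FBLN1, -0.29 to 0.029 for FBLN5, -0.057 to 0.089 for EFEMP2, -0.19 to 0.027 for LTBP1, -0.20 to 0.062 for LTBP2, -0.027 to 0.052 for LTBP3, -0.026 to 0.026 for LTBP4 and -0.19 to -0.0043 for the median, the last lowest without AEBP1 siRNA 2 and nearest 0 without AEBP1 siRNA 1. FBN2 stayed below 0, from -0.47 to -0.057. Differences in shares ranged from -0.99 to 0.48 percentage points for LTBP1, -0.38 to 0.26 for LTBP2, -0.51 to 1.67 for LTBP3, -0.29 to 1.39 for LTBP4, -0.38 to 0.32 for FBLN1, -0.86 to -0.38 for FBLN5, 0.34 to 1.05 for EFEMP2 and 0.89 to 4.22 for FBN1, the last 2.18 as reported and 4.88 without both libraries numbered 3. Samples of the same replicate number had correlations of deviations of 0.096, -0.0078 and -0.10, which cannot settle whether they were paired. The fit with the replicate number as a block called 2 genes and 0 of the 9. Depth limits ELN to the upper bound given for a count of 0.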
